A study of Mus musculus with 16 samples.

Results

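The eGFP control group of this study describes cortical parvalbumin (PV) interneurons at baseline, in cells that express only the fluorescent reporter. It holds 9 of the 16 libraries, taken as all samples that the labels call eGFP control. The mice were adults that carried PV-Cre together with Cre-dependent eGFP (lsl-eGFP), and the study gives 1 age for all animals, 113.1 ± 11.6 days. Tissue was digested with pronase and fixed in paraformaldehyde (4%, for 15 min) before dissociation, and more than 20000 nucleated eGFP-positive cells were sorted per mouse cortex before RNA of the fixed cells was polyA-selected and sequenced. A Cre-dependent reporter marks every cell in which Cre has been active, so the sort selects on the history of PV-Cre and not on the Pvalb transcript. The labels number the libraries as biological replicates and give no sex, litter or batch for any of them. All levels below are transcripts-per-million values (TPM), a scale that corrects for transcript length, so that genes can be compared with each other within a library.

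PV interneurons are the fast-spiking inhibitory cells of the cortex. They make basket and axo-axonic synapses onto the soma and axon of pyramidal cells, fire brief action potentials at high rates, and release GABA with little delay. Kv3 potassium channels repolarise their spikes quickly, parvalbumin binds calcium in the cytosol, a perineuronal net surrounds the soma, and their energy use is high.

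Depth ran from 8535349 to 13981367 deposited counts per library. The libraries differed in reads on 1723 autosomal olfactory and vomeronasal receptor genes, which serve sensory neurons of the nose and are used here as a measure of background. This background was 111 to 177 counts-per-million (CPM) in replicates 7 to 9 (low), 725 and 1222 CPM in replicates 6 and 5 (middle) and 2036 to 4411 CPM in replicates 1 to 4 (high). Depth differed by tier as well, with 13246914 to 13981367 counts in the low and 8535349 to 10960661 in the high-background libraries. Genes with at least 1 count numbered 30739 to 33334 in the low and 47975 to 49971 in the high-background libraries. Pearson correlations between pairs of libraries were taken on log2 levels of 2776 characterised genes (defined below) with a median of at least 20 TPM. They ran from 0.684 (replicates 1 and 9) to 0.987 (replicates 8 and 9). The background followed the replicate numbers. Of the 196 genes named in the text, 67 had a mean in the low tier over 1.5 times that in the high tier, and 29 the reverse, so a median over the 9 libraries can stand between 2 unlike tiers. Tier values are printed for the members the text turns on. Replicate 2 held both Xist, which the inactive X chromosome transcribes (12.8 TPM), and the Y-linked gene Eif2s3y (2.50 TPM), although the protocol describes cells sorted per mouse cortex. Whether it comes from 1 mouse was not tested. Without replicate 2 the mean level of Pvalb, given next with it, was 229 TPM. In bulk libraries of sorted cells, fewer cells of a type and less RNA per cell cannot be told apart.

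All 6 marker genes of PV cells were present in every library. Pvalb, the gene of parvalbumin (ENSMUSG00000005716, GRCm38 chromosome 15, 78191114 to 78206400, minus strand), had 100.4, 171, 157 and 172 TPM in replicates 1 to 4, 174 and 205 TPM in replicates 5 and 6, and 306, 331 and 388 TPM in replicates 7 to 9. The 3 low-background libraries were thus the highest, and they did not overlap with the 4 high-background ones (342 ± 42.0 TPM, SD, n = 3, against 150.1 ± 33.9, SD, n = 4). Over the 9 libraries the mean was 223 ± 95.9 TPM (SD). This separation was common: of 2776 characterised genes with a median of at least 20 TPM, 58.2% were higher in every low-background than in every high-background library, and 4.14% were lower. Characterised genes are here the 20474 nuclear protein-coding genes that have a name other than a numbered Gm model. Among these Pvalb ranked between place 34 and place 168, with a median of place 61. From deposited counts divided by exon length its median place was 28.

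Syt2, a fast calcium sensor of vesicle release (ENSMUSG00000026452, chromosome 1, 134646677 to 134762593, plus strand), spread as widely as Pvalb. It ran from 75.8 TPM in replicate 1 to 296 TPM in replicate 9, with a median of 175 TPM, and its 3 low-background libraries (267 ± 28.8 TPM, SD, n = 3) again lay above the high-background ones (124 ± 37.7, SD, n = 4). The highest library exceeded the lowest 3.90-fold for Syt2 and 3.87-fold for Pvalb. Gad1, which encodes the GABA-synthesising enzyme GAD67 (chromosome 2, 70553072 to 70602014, plus strand), ran from 368 to 997 TPM with a median of 644 TPM and a median place of 3 among characterised genes (921 ± 117 TPM, SD, n = 3, in the low and 499 ± 120 TPM, SD, n = 4, in the high-background libraries). Gad2, which encodes GAD65 (chromosome 2, 22622205 to 22693874, plus strand), was lower and varied less, from 53.8 to 93.0 TPM with a median of 69.0 TPM. Kcnc1, the Kv3.1 channel (chromosome 7, 46396497 to 46438704, plus strand), ran from 109.6 to 203 TPM with a median of 144 TPM. Lhx6, a transcription factor of interneurons from the medial ganglionic eminence (chromosome 2, 36081953 to 36105408, minus strand), varied least, from 24.9 to 38.9 TPM with a median of 30.2 TPM, and it was the only marker among the 6 whose low and high-background libraries overlapped. Rescaled over characterised genes alone, Lhx6 differed 1.203-fold between its extreme libraries, Gad2 1.44-fold, Kcnc1 1.66-fold, Gad1 2.22-fold, Pvalb 3.12-fold and Syt2 3.14-fold.

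**Figure D1:**
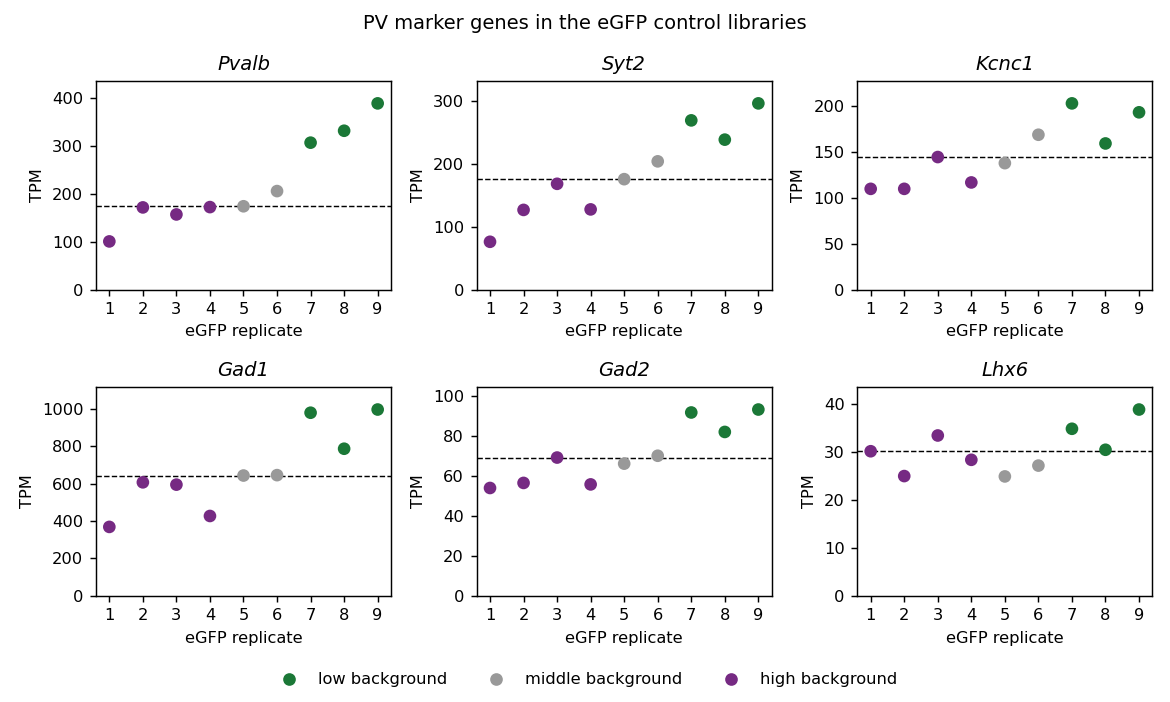
TPM of the 6 PV marker genes (vertical axes, each from 0) in the eGFP replicates 1 to 9 (horizontal axes); 1 point is 1 library, coloured by its background in receptor genes of the nose, and the dashed line is the median. Pvalb, Syt2, Gad1 and Gad2 were highest in the 3 low-background libraries, for Kcnc1 replicate 6 stood above replicate 8, and Lhx6 stayed between 24.9 and 38.9 TPM.

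The promoter windows of Pvalb and Syt2 are shown because these genes had the widest ranges among the markers. Both are the 250 bases before the first listed start in RefSeq (build GRCm38.p6), written on the gene's strand; capitals mark matches to a MEF2 site in Pvalb and to an ERR element in Syt2.
Pvalb, chr15:78206401-78206650, minus strand: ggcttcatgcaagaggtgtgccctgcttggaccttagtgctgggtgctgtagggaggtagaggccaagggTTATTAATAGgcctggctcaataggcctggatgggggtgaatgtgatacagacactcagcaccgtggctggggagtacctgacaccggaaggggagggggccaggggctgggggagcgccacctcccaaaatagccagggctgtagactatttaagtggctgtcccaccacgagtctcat
Syt2, chr1:134646362-134646611, plus strand: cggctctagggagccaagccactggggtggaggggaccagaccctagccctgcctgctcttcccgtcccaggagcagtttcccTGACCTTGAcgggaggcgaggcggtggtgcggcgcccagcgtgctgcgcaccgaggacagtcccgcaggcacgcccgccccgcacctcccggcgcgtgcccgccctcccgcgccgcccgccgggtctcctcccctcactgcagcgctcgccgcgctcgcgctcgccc
Matches were searched on both strands for a core promoter element (written TATAAA), a proximal element (written CCAAT), a GC box (written GGGCGG), a nuclear receptor half-site (written AAGGTCA), an ERR element (written TCAAGGTCA, which contains the half-site), a homeodomain core (written TAATTA) and a MEF2 site. The Pvalb window held the MEF2 match alone, 180 bases before the start, and 4 CpG dinucleotides at 58.4% GC. A MEF2 match stood in 2.92% of all 32851 windows. The Syt2 window held the ERR element, written on the other strand, 167 bases before the start, and 30 CpG dinucleotides at 76% GC. An ERR element stood in 0.387% of windows. GC boxes were also found in Syt2, and occurred in 32.7% of windows. The second listed window of Pvalb (23 CpG dinucleotides) held none of the searched matches, and that of Syt2 held no ERR element. Such matches are descriptions of the letters and show no binding. For the factors that share these names, Mef2c had a median of 134 TPM (range 111 to 210.1) and Mef2a 58.8 TPM, and the estrogen-related receptor genes Esrrg, Esrra and Esrrb had 29.1, 24.9 and 2.61 TPM. Ppargc1a, their coactivator PGC-1alpha, had 26.0 TPM (range 18.8 to 37.1).

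The labelled cell type was checked against lists of marker genes. Of 28 genes of PV identity, 26 had a median of at least 10 TPM (92.9%), beside 27.0% of all characterised genes, and the median member stood at 45.1 TPM. The list's summed level ran from 1583 to 3172 TPM. Its abundant members included Cplx1, which clamps and triggers vesicle fusion (286 TPM, with means of 394 in the low and 207 in the high-background libraries), and Pvalb itself. Only Rbp4, a retinol carrier (8.85 TPM), and Akr1c18, a steroid-metabolising enzyme (5.34 TPM), had a median under 10 TPM. Of the 21 members with a median of at least 20 TPM, 15 were higher in every low than in every high-background library, beside 58.2% of all such genes. Of 16 genes shared by GABAergic cells, 13 reached 10 TPM, led by Gad1. Those below were Dlx2 (4.95 TPM) and Dlx5 (4.89 TPM), homeobox genes of the interneuron lineage, and Elfn1 (1.37 TPM), a postsynaptic adhesion gene of somatostatin cells.

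Markers of other inhibitory neurons were lower, but not all were at the floor. Beside 27.0% of all characterised genes, 5 of 12 members of the somatostatin list reached 10 TPM (41.7%). Among these was the calcium buffer gene Calb1 (19.4 TPM). Chodl, a marker of a small long-range class, had the highest TPM (21.7, range 13.8 to 48.8), with means of 14.6 TPM in the low and 38.5 TPM in the high-background libraries. From the deposited counts, divided by exon length and rescaled (counts per kilobase), Chodl had a median of 0.547, below Sst at 37.5 and Calb1 at 30.5. Sst itself, the peptide that names the class, ran from 3.89 to 19.3 TPM with a median of 10.8 TPM. The VIP list had a median member of 0.61 TPM and 4 of 12 members at 10 TPM (33.3%). It was led by Cck, a peptide gene (71.4 TPM), and Parm1 (36.8 TPM), while Vip was at 0.98 TPM. In the LAMP5 list 3 of 12 members reached 10 TPM (25%), led by the GABA-A receptor gene Gabrd (55.9 TPM) and the peptide gene Npy (26.8 TPM). Lamp5 was at 1.95 TPM and Ndnf at 0.257 TPM. Summed levels ran from 63.3 to 134 TPM for the somatostatin list, 115 to 201 TPM for the VIP list and 99.1 to 155 TPM for the LAMP5 list.

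For excitatory neurons 5 of 22 members reached 10 TPM, beside the 27.0% of all genes. These were Rasgrf2, a guanine nucleotide exchange factor (46.7 TPM, range 37.3 to 56.2), Cux2, a transcription factor of upper layers (26.8 TPM), Lmo3, Camk2a and Foxp2. Foxp2 had means of 10.5 TPM in the low and 32.6 TPM in the high-background libraries, and a median of 0.981 counts per kilobase, so that its place among the 5 rests on the TPM scale. The vesicular glutamate transporter gene Slc17a7 was at 5.65 TPM (range 4.43 to 8.94), and Tbr1 and Neurod6, transcription factors of pyramidal cells, were at 1.03 and 0.501 TPM. The list's summed level was 148 to 215 TPM. Among 14 astrocyte genes 4 reached 10 TPM (28.6%). They were led by Aldoc, a glycolytic enzyme (24.2 TPM, with means of 40.8 in the low and 16.7 in the high-background libraries), and Ndrg2 (22.9 TPM). Gfap and Aqp4 were at 0.576 and 0.574 TPM. Of 14 oligodendrocyte genes Mbp, a myelin protein, reached 10 TPM (10.3 TPM). No member of the lists for oligodendrocyte precursors (8 genes, led by Bmp4 at 1.63 and Vcan at 1.13 TPM), microglia (13 genes, among them P2ry12 at 1.75 TPM) or endothelial and mural cells (15 genes, led by Pecam1 at 2.81 and Itm2a at 1.498 TPM) had a median of 10 TPM. Pecam1 had means of 1.66 TPM in the low and 7.06 TPM in the high-background libraries, and Itm2a 2.08 and 1.29 TPM. On counts per kilobase Itm2a (4.29) stood above Pecam1 (1.26). Of the 7 erythrocyte genes found, Alas2, an enzyme of heme synthesis, led with 9.19 TPM. Hbb-bs, a beta globin, ran from 2.37 to 4.91 TPM in replicates 1 to 7 and stood at 25.04 and 12.8 TPM in replicates 8 and 9.

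The olfactory neuron list was read beside the background measure. Its leading members Gnal (27.6 TPM) and Gng13 (18.5 TPM) encode G protein subunits, and Omp, the olfactory marker protein, was at 0.796 TPM. The list's median member was at 0.195 TPM in the low and 1.58 TPM in the high-background libraries. The VIP list was at 0.271 and 1.51 TPM, and the precursor list at 0.209 and 1.13 TPM. For the erythrocyte list the values were 5.46 TPM in the low and 1.81 TPM in the high-background libraries, but the low-background libraries were unlike. Replicate 7 was the lowest of all 9 libraries at 0.712 TPM, and replicates 8 and 9 were the highest at 6.96 and 5.46 TPM. Over all characterised genes the median was 2.28 and 3.32 TPM. Low levels in a high-background library therefore cannot be told apart from background, and the part of the background in the levels of these lists was not tested.

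**Figure D2:**
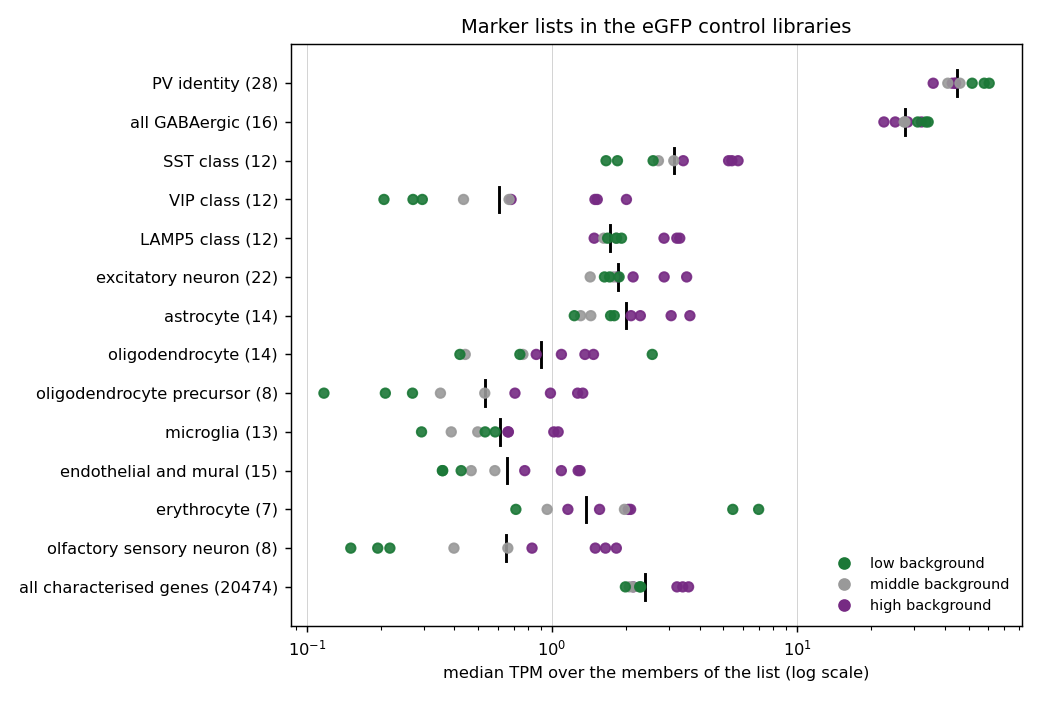
Median TPM over the members of each marker list (horizontal, log scale) for 13 cell classes and for all characterised genes (vertical, number of genes found in brackets); 1 point is 1 library, coloured by background tier, and the black bar is the median of the members' medians. The PV list stood at 35.9 to 60.7 TPM in every library, and the lists of non-neuronal cells at or below 6.96 TPM.

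How many genes were counted as detected depended on the threshold. Of 20474 characterised genes, 10868 (53.1%) had at least 1 TPM in every library, and 16698 (81.6%) in at least 1 library. At 10 TPM the count in every library was 4237 (20.7%), and at 100 TPM it was 106. The 95th percentile of the protein-coding receptor genes gives each library a floor. It lay between 2.63 and 2.78 TPM in the low and between 5.44 and 12.3 TPM in the high-background libraries. Above that floor in every library were 4769 genes (23.3%). At 1 TPM, 750 genes were detected in all 4 high-background and none of the 3 low-background libraries, and 0 the other way round. For the PV list the floor was taken from all 1723 receptor genes, not the protein-coding ones alone. Above that floor were 25 of 28 members in every library, and 28 in every low-background library.

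The deposited TPM gave most of the total to a few models that are not characterised genes. The highest 10 genes of each library held 52.9 to 64.6% of TPM. By median these included Gm10800 (118643 TPM), Rn7sk, the 7SK small nuclear RNA (96469 TPM), Gm26870 (93101 TPM), and Rn7s1 and Rn7s2, copies of the signal recognition particle RNA (72268 TPM each). The 10 nuclear protein-coding genes of highest median TPM were all numbered models: Gm10800, Gm21738, Gm10718, Gm10801, Gm10719, Gm10717, Gm10721, Gm11168, Gm10720 and Gm10722. With the lincRNA Gm26870 they form a group of 11 models in which 37.1 to 95.6% of all 31-base words of a model recur in another. Gm26870 and 7 of the others lie within the first annotated stretch of chromosome 9, between 3000282 and 3038313. Reads of such models cannot be assigned to a single copy, and their separate values are uncertain. The group held 20.5 to 42.9% of TPM, with a median of 36.03%, and small structural RNAs held 24.3 to 44.4%. Characterised genes held 17.7 to 26.8%, with a median of 21.9%.

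The deposited counts gave another picture of the same libraries. There characterised genes held 76.9 to 86.5% of the total, the repeat-like models 4.77 to 12.5% and small structural RNAs 1.22 to 2.41%. Rpph1, the RNA of RNase P, shows the contrast most: it had a median of 9446 TPM and between 0 and 2 counts per library. The order of genes within a library does not depend on this total, but for single genes it can differ between TPM and counts per kilobase. Over the 196 named genes the median of counts per kilobase divided by TPM was 1.85.

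**Figure D3:**
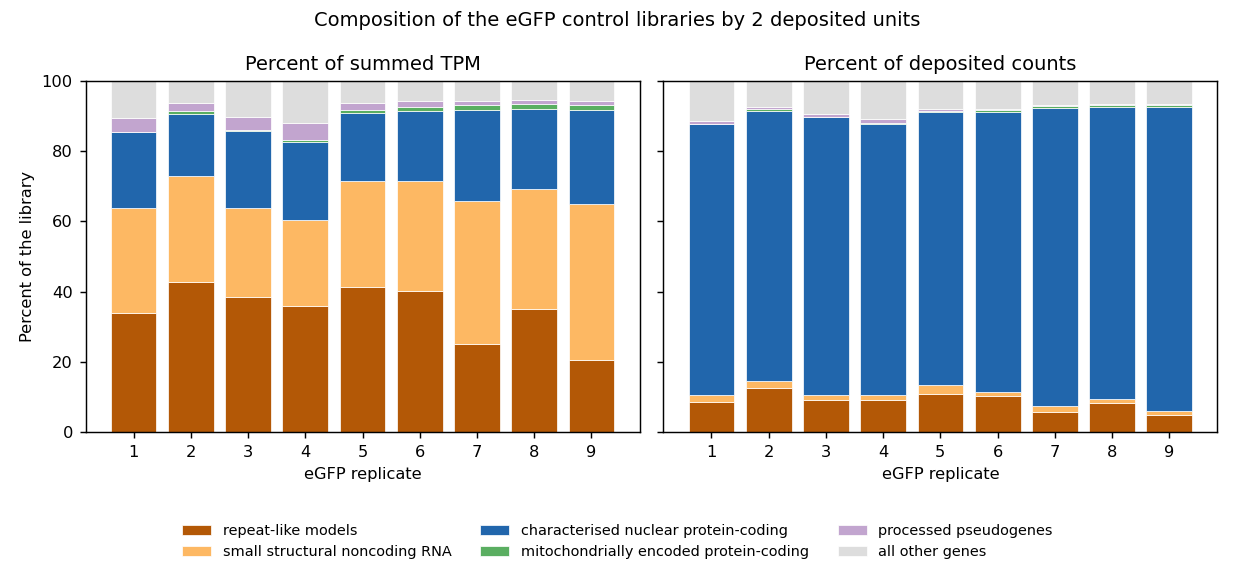
Percent of the summed TPM (left) and of the deposited counts (right) held by 6 classes of genes (stacked bars, vertical axis from 0 to 100) in eGFP replicates 1 to 9 (horizontal axis). Characterised genes take 17.7 to 26.8% of TPM and 76.9 to 86.5% of counts.

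The most abundant characterised genes were picked for naming from their values. By median TPM they included Atp5b (686, the beta subunit of ATP synthase), Ndrg4 (680), Atp1b1 (672, a sodium pump subunit), Gad1 (644), Snap25 (523, a SNARE protein), Gapdh (505, a glycolytic enzyme with many processed pseudogenes, which makes its value uncertain), Hspa8 (490, a chaperone), Sparcl1 (474) and Syp (422, synaptophysin). That order rests on TPM. On counts per kilobase Sparcl1 (1831), Atp1b1 (1263) and Ndrg4 (1090) stood above Gad1 (646), Atp5b (492) and Syp (266). No characterised gene had a median above 686 TPM, and 220 had a median of at least 100 TPM. The 10 highest characterised genes of a library held 1.92 to 3.20% of the characterised total and the 100 highest 9.77 to 14.7%. The lowest shares were in replicate 1 and the highest in low-background libraries. Among long noncoding genes the highest were Gm26870, then Snhg14, the host transcript of imprinted small nucleolar RNAs (9106 TPM, range 6402 to 13042), and Gm26917 (3481 TPM). This order rests on TPM: on counts per kilobase Gm26917 had a median of 13427, Gm26870 1047 and Snhg14 66.8.

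Levels within 60 gene families were then compared per library, and the leader of a family is its member of highest median TPM. In 48 families the same gene was highest in every library, and in 14 the leader held at least 75% of the family. As a check of the scale, the leaders were also taken on counts per kilobase, in which deposited counts are divided by the length of all annotated exons of a gene and rescaled to the same total in each library. In 43 families the leader was the same on that scale and in 17 it was not. Those discussed here are marked, and their order in TPM rests on the scale.

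Genes of GABA handling were led by Gad1, which held 50.2% of the summed TPM of 7 genes and was highest in 8 of 9 libraries, with replicate 1 as the exception. Slc32a1, the vesicular GABA transporter, was at 83.1 TPM and Abat, which degrades GABA, at 77.3 TPM. The transporters Slc6a11 and Slc6a13 were near 1 TPM. On counts per kilobase Gad1 stood at 646 and did not have the highest median of the 7. The chloride exporter KCC2, Slc12a5, was at 110.9 TPM (range 85.8 to 139.9), and the importer NKCC1, Slc12a2, at 2.87 TPM (range 2.04 to 3.39), a ratio of 30.96 to 56.3 in single libraries.

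Among 12 cytosolic calcium binders Pvalb led in all 9 libraries. It held 44.3% of their sum, from 33.6 to 52.4%. Vsnl1 (100.4 TPM), Ncald (67.3 TPM) and Hpca (46.7 TPM), neuronal calcium sensors, followed. Calb1, calbindin, was at 19.4 TPM, and Calb2, calretinin, at 0.376 TPM. The calmodulin genes Calm2, at 320 TPM, and Calm3, at 229 TPM, were above Pvalb in median, with Calm3 first of its family on counts per kilobase.

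The delayed rectifiers of fast spiking were almost even. Kcnc1 and Kcnc2, Kv3.1 and Kv3.2, had medians of 144 and 134 TPM, and Kcnc1 was the higher in 6 of 9 libraries. Kcnc4 was at 0.779 TPM. Kv1 subunits, which set the threshold of axonal firing, showed the same balance, with Kcna2 at 60.9 TPM and Kcna1 at 54.4 TPM. Kcna1 was the higher in 5 libraries and Kcna2 in 4, and on counts per kilobase Kcna1 led in all 9. Their beta subunits were led by Kcnab2 at 106 TPM. Kcns3, a silent subunit known from PV cells, led the Kv2 and silent group in all 9 libraries at 19.9 TPM. For A-type channels the partner gene Kcnip2 (96.4 TPM) stood far above the pore gene Kcnd2 (11.7 TPM). Kcnma1 (48.0 TPM) of the BK channel led its family in every library, and Kcnq3 of the M-current was at 31.004 TPM. Kcnk1 led the tandem-pore leak channels at 30.97 TPM.

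Sodium channels were led by Scn1a, Nav1.1 (95.8 TPM, range 72.9 to 133), with Scn8a, Nav1.6, close behind (86.2 TPM, range 65.5 to 107) and Scn2a at 25.7 TPM. Of the calcium channels Cacna1a, the P/Q-type pore that triggers release in these cells, held 42.8% of 10 genes at 66.7 TPM, ahead of Cacna1b, the N-type pore, at 22.8 TPM. Its partners were uneven: Cacna2d2 held 87.4% of the alpha2delta genes (39.5 TPM) and Cacnb4 73.9% of the beta genes (78.6 TPM). The share of Cacna2d2 spread from 69.8 to 92.7%. On counts per kilobase the shares were 33.7% for Cacna1a, 93.9% for Cacna2d2 and 51.0% for Cacnb4.

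Some families of ion pumps and energy genes had 1 dominant member. Atp1b1 held 94.8% of the beta genes of the sodium pump, ahead of Atp1b3 at 39.2 TPM. Ckb, brain creatine kinase (410 TPM, range 276 to 707), held 86.2% of its family, with the mitochondrial form Ckmt1 at 67.9 TPM. Hk1, hexokinase 1, held 93.1% at 35.9 TPM. Ldhb, the lactate dehydrogenase subunit linked to lactate use, was at 389 TPM and Ldha at 19.4 TPM. Slc2a3, the neuronal glucose transporter, led at 33.6 TPM. Cytochrome oxidase isoforms were led by Cox4i1 (252 TPM) and Cox8a (226 TPM), in reverse order on counts per kilobase. The muscle-type gene Cox6a2, a known PV gene, was at 47.1 TPM (means of 73.8 in the low and 30.96 in the high-background libraries) and stayed below Cox6a1 (167 TPM) in every library. The calcium pumps Atp2b2 (80.6 TPM) and Atp2b1 (74.8 TPM) were close in TPM, and Atp2b2 led in 7 of 9 libraries. On counts per kilobase they were apart, at 179 and 55.0.

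AMPA receptor subunits were of like level. Gria2, whose product limits calcium entry, had a median of 87.8 TPM (range 57.2 to 107.7), Gria1 79.5 TPM, Gria4 60.9 TPM and Gria3 51.6 TPM. Gria2 led in 5 libraries and Gria1 in 4, with 29.8% of the sum for Gria2. On counts per kilobase Gria1 led in all 9 libraries, at 283 against 97.7 for Gria2. Their TARP partners were led by Cacng8 (22.8 TPM) and Cacng2, stargazin (18.0 TPM), with Cacng2 first on counts per kilobase. Grin1, the obligatory NMDA subunit, was at 82.8 TPM, with Grin2a at 63.1, Grin2b at 58.6 and Grin2d at 10.3 TPM, and Grin2b had the highest median on counts per kilobase. Grm5, mGluR5, held 67.9% of the metabotropic genes at 61.2 TPM, and 49.5% on counts per kilobase. Grik2 led the kainate subunits at 44.0 TPM, with Grik1 at 20.5 TPM, and Grik5 (16.2 TPM) led on counts per kilobase.

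The beta genes of GABA-A receptors were dominated by 1 member: Gabrb2 held 78.2% of their sum at 112 TPM. Of the alpha genes, Gabra4 was at 26.9 TPM and Gabra2 at 2.88 TPM. Gabrd, the extrasynaptic delta subunit, was at 55.9 TPM. Of the GABA-B receptor genes, Gabbr1 (104.4 TPM) was above Gabbr2 (67.7 TPM) in TPM and below it on counts per kilobase (162 and 233).

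Receptors of modulators were lower. The leading genes were Adra1a, the alpha1A adrenergic receptor (24.2 TPM), Oprd1, the delta opioid receptor (23.6 TPM), Chrnb2, a nicotinic subunit (14.1 TPM), Htr2a, a serotonin receptor (11.2 TPM), Drd1, a dopamine receptor (8.72 TPM), and Chrm4, a muscarinic receptor (7.51 TPM). Next in order were Adrb1 (5.62 TPM), Oprl1 (13.1 TPM), Chrna7 (10.8 TPM), Htr2c (5.44 TPM), Drd4 (0.819 TPM) and Chrm1 (5.87 TPM). Drd1, Htr2a, Adra1a, Oprd1 and Chrnb2 led in all 9 libraries. Chrm4 led in 8.

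Release genes included both even and lopsided families. Syt1 (276 TPM) led the synaptotagmins in every library, and Syt2 was next. Cplx1 held 97.9% of the complexins, with Cplx2 at 6.12 TPM, and Sv2a 98.0% of the SV2 genes, with Sv2b at 2.82 TPM. Vamp1 (111 TPM) was above Vamp2 (86.8 TPM) in 8 of 9 libraries, but below it on counts per kilobase (88.2 and 150). Syn2 (63.3 TPM) stood above Syn1 (29.4 TPM) in TPM and below it on counts per kilobase (100.7 and 135). Rims2 (40.7 TPM) and Unc13a, Munc13-1 (39.3 TPM), shared the lead of the active-zone genes, in 6 and 3 libraries, with Unc13a first on counts per kilobase. Of the connexins and pannexins, Gjd2, the neuronal gap junction protein connexin 36, was at 12.8 TPM (range 8.44 to 19.7) and Panx2 at 11.6 TPM, and Gjd2 led in 3 libraries only.

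Genes of the perineuronal net and of adhesion followed. Bcan, brevican, held 80.3% of its proteoglycan family at 57.9 TPM, while Acan, aggrecan, the usual net marker, was at 6.45 TPM (range 4.10 to 8.68). The link protein gene Hapln4 was at 47.7 TPM, Tnr, tenascin-R, at 31.8 TPM and Hapln1 at 15.4 TPM. Erbb4, the neuregulin receptor of interneurons, held 88.5% of its family at 197 TPM, and Nrg3 was at 18.6 TPM. Nrxn3 (107.8 TPM) led the neurexins, and Nlgn2 (26.6 TPM), of inhibitory synapses, led the neuroligins before Nlgn3 (17.9 TPM). Ntrk2, the BDNF receptor, was at 96.7 TPM and Ntrk3 at 44.5 TPM.

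Of the lineage factors, Satb1 (46.8 TPM), Sox6 (38.4 TPM), Dlx1 (33.1 TPM) and Lhx6 (30.2 TPM) were the highest of 15, and Satb1, with 17.2% of the sum, led in all 9 libraries. Prox1, a factor of caudally derived interneurons, was at 0.406 TPM. On counts per kilobase Lhx6 had the highest median. In the list of secreted peptides and related ligands, Nxph1, a neurexin ligand (72.6 TPM), and Cck (71.4 TPM) were level, with Cck higher in 6 libraries and first on counts per kilobase. Tac1, the substance P precursor, followed at 56.9 TPM (range 42.1 to 80.8).

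**Figure D4:**
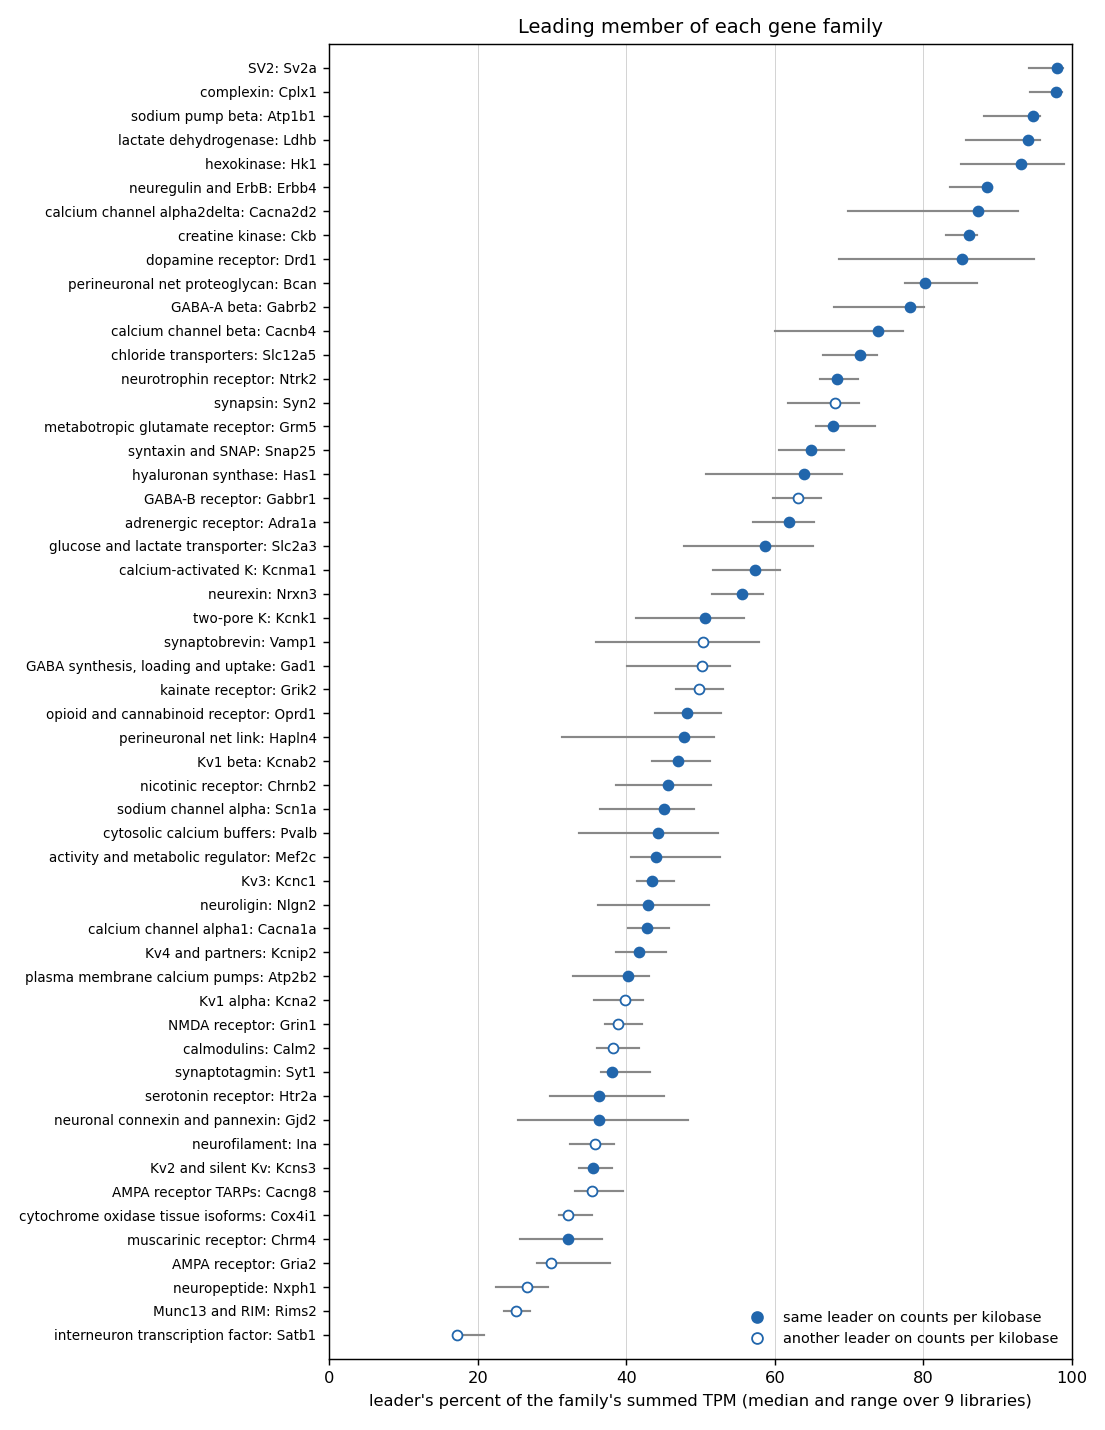
Percent of each family's summed TPM held by its leading gene (horizontal, 0 to 100) for 54 families whose leader is named (vertical, with the leader's symbol); points are medians and lines ranges over the 9 libraries, and open points mark families whose leader differs on counts per kilobase. The share falls from 98.0% for Sv2a to 17.2% for Satb1.

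Orders within families were tested for 24 pairs of related genes, as the log2 ratio within each library. In the exact two-sided sign-flip test over the 9 libraries, whose smallest p is 0.00391, 21 pairs passed at an adjusted p below 0.05 (87.5% of the pairs tested), with adjustment over the 24 pairs. In 16 of these the first gene was higher in every library, and in 3 the second gene. The pairs were chosen with earlier results of these data known. The test asks whether the mean log2 ratio differs from 0, so a bias of the TPM scale shared by all libraries also passes. The largest ratio was that of Atp1b1 over Atp1b2 (log2 6.85 ± 0.79, SD, n = 9, exact permutation p adjusted = 0.00493). Gad1 exceeded Gad2 by 3.20 ± 0.23, a ratio of 6.85 to 10.8 in single libraries, and by 1.79 on counts per kilobase. Scn1a exceeded Scn2a by 1.94 ± 0.45, and by 2.97 on counts per kilobase. The 3 pairs in which the gene better known from PV cells was the lower in every library were Cox6a2 against Cox6a1 (-1.91 ± 0.12), Syt2 against Syt1 (-0.68 ± 0.37) and Gria4 against Gria1 (-0.33 ± 0.08, and -0.93 on counts per kilobase). Of the 19 pairs plotted, 10 had a ratio that moved by over 1.5 times between TPM and counts per kilobase.

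Not past the threshold were Kcnc1 over Kcnc2 (0.07 ± 0.11, SD, n = 9, exact permutation p adjusted = 0.139), Kcna1 over Kcna2 (-0.01 ± 0.09, adjusted p = 0.801) and Grin2a over Grin2b (0.14 ± 0.23, adjusted p = 0.124). Without replicate 8 the last of these passed, at 0.20 (exact permutation p adjusted = 0.0341). Scn1a over Scn8a passed with a small difference (0.19 ± 0.16, higher in 8 of 9 libraries, exact permutation p adjusted = 0.0134). On counts per kilobase Vamp1 over Vamp2, a called pair, changed direction to -0.42 (exact permutation p adjusted = 0.00408). Kcna1 over Kcna2 (0.0937) and Grin2a over Grin2b (-0.22) also changed direction there, and both passed (exact permutation p adjusted = 0.00408). On that scale 23 pairs were called. Ratios also moved with the background. Pvalb over Calb1, with a mean of 3.39 in TPM and 4.27 on counts per kilobase, was 4.20 in the low and 2.77 in the high-background libraries.

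**Figure D5:**
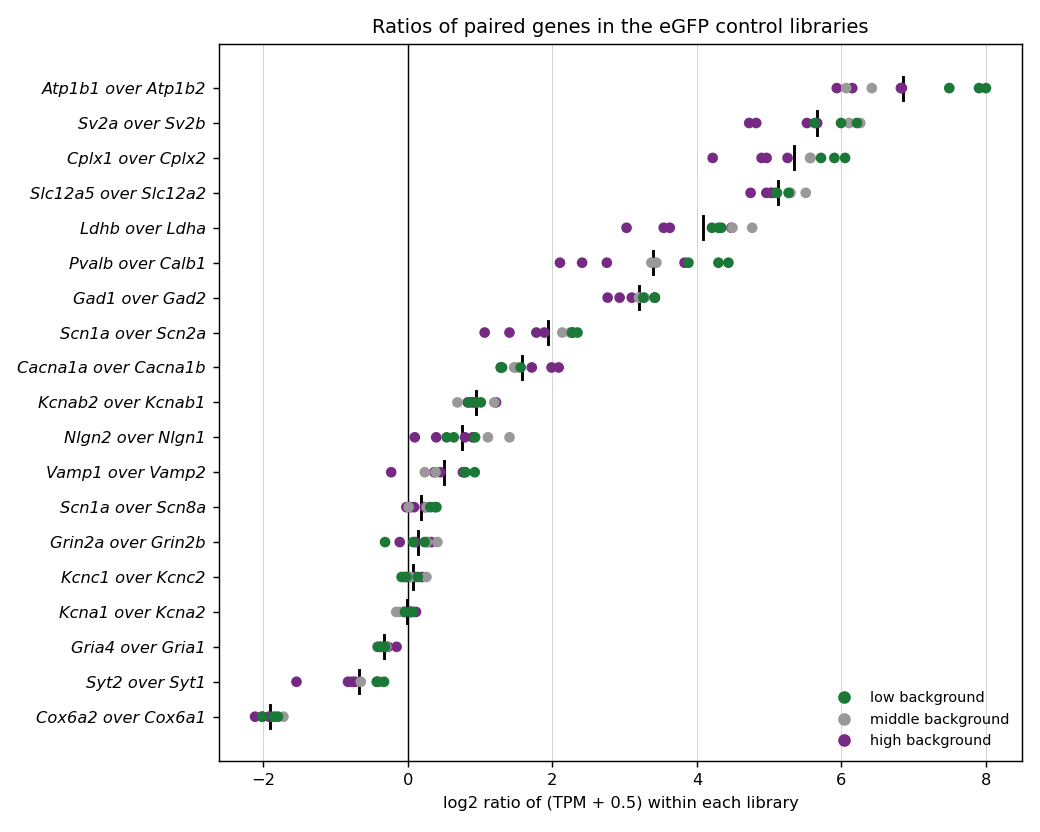
Log2 ratio of (TPM + 0.5) of 19 of the 24 pairs of genes within each library (horizontal axis); 1 point is 1 library, coloured by background tier, the black bar is the mean and the vertical line marks equal levels. The pairs from Kcna1 over Kcna2 to Vamp1 over Vamp2 straddle 0, and 11 of the plotted pairs lie to its right in all 9 libraries.

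The spread over libraries was measured as the SD of log2(TPM + 0.5) for 2826 protein-coding genes with a median of at least 20 TPM. The median gene had an SD of 0.31. For the 2776 characterised genes among them it was 0.14 within the 3 low and 0.21 within the 4 high-background libraries, and the median ratio of low to high-background means was 1.36. The genes of smallest SD were Dnm3, a dynamin (25.9 to 31.6 TPM, SD 0.10), Marf1, Wdr26, Dhx9, an RNA helicase, Srgap2, a regulator of spine growth, and Vps13c, a lipid transporter (SD 0.13). Their highest library exceeded the lowest by 1.22 to 1.37-fold. The largest SD was that of Lars2, the mitochondrial leucyl-tRNA synthetase (1.66). It stood at 527 TPM in replicate 5 and 226 TPM in replicate 2, and between 16.6 and 63.9 TPM in the other 7 libraries.

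The next 5 were all encoded by mitochondrial DNA: mt-Co1, mt-Cytb, mt-Nd3, mt-Nd1 and mt-Co3, with SDs of 1.54 to 1.57. The gene mt-Co1, a catalytic subunit of cytochrome oxidase, ran from 106 TPM in replicate 1 to 2988 TPM in replicate 9, with a median of 1735 TPM. Together the 13 mitochondrial protein-coding genes held 0.0650% of TPM in replicate 1, 0.274% in replicate 3 and 1.55% in replicate 9, a range of 23.9-fold. On counts the share ran from 0.0268 to 0.601%. Of characterised nuclear genes Pvalb had the SD of place 113 of 2776 from the top (0.62), and of place 136 after rescaling over characterised genes. Xdh, xanthine dehydrogenase, which was named after its values were seen, had the largest SD after Lars2 among characterised genes (1.42), with 4.03 to 5.54 TPM in the low and 29.1 to 48.7 TPM in the high-background libraries. Its level rests on the TPM scale, since on counts per kilobase its median was 1.91 (range 0.578 to 6.10).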

How the data were processed

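RNA of fixed, sorted eGFP-positive cells in 9 control libraries was sequenced in pairs of 150-bp reads, per the labels' protocols. The authors ran bcbio-nextgen 1.2.3 with STAR on GRCm38 and with Sailfish on Ensembl genes, per the series' design text. The deposited TPM values, made by the authors, sum to 1000000 per library and were the main scale. The deposited counts are whole numbers for 54532 genes, not normalized; their counter and its use of strand are not given in the sources used here. Overlapping and antisense genes therefore cannot be separated. The table of the authors' comparison of the groups was not used.

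GENCODE M21 named 54495 of the identifiers, and 37 were not named. Coordinates are 1-based on GRCm38. Computed here were medians, ranges, SDs, places among 20474 characterised genes, family shares, and exact sign-flip tests with Benjamini-Hochberg adjustment on log2(TPM + 0.5) ratios (Python 3.11.15, numpy 2.4.6, pandas 2.3.3, scipy 1.17.1). The ratio has a pseudocount of 0.5, which understates ratios of low genes. Background tiers were set at 500 and 1500 CPM. Depth was 8535349 to 13981367 counts per library, and Pvalb, for example, had 981 to 5322 counts. The SD over libraries and the sign-flip test were tried on simulated data without background tiers, so shifts between tiers were not covered.

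The members, lists, families and pairs were chosen with earlier results of these data known. Named genes are the 6 markers; the 10 nuclear protein-coding genes and 3 long noncoding genes of highest median TPM; per family the leader, the next and members of textbook role; per other cell class the 2 highest members; the 6 smallest and 6 largest SDs; and both genes of a pair. Lists hold 504 entries, of which 503 were found. Alternatives were counts per kilobase of exon, other gene totals, thresholds, pseudocounts and filters, single background tiers and leaving out each library. Rescaling over characterised genes and the receptor floor were added after seeing the data. Some members of the lists, families and pairs are not reported here by name. Promoter windows are RefSeq's, and all 6 markers were found among them by symbol.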

Additional observations from a re-analysis of the deposited data

Results flagged for a closer look

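Of 207 values tested over the 9 libraries, 3 had a library far from the others by Dixon's ratio (above 0.493), where chance flags about 1 in 20. Gria3, an AMPA receptor subunit, stood at 39.8 TPM in replicate 2 and at 48.8 to 59.9 TPM elsewhere. Nrg3, a neuregulin, stood at 12.5 TPM in replicate 2 and at 16.5 to 21.5 TPM elsewhere. Wdr26 stood at 26.5 TPM in replicate 1 and at 20.1 to 23.1 TPM elsewhere.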

How the results depend on the processing

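No paired analysis was possible because only 1 group is described and its ratios are already taken within a library. The 10868 characterised genes at 1 TPM in every library became 7050 at 5 TPM, 4237 at 10 TPM and 4769 above the receptor floor, and 10872 to 10933 with each library left out. The mean Pvalb level of 223 TPM became 623 on counts per kilobase, 459 over nuclear protein-coding genes, 991 over characterised genes and 342 in low-background libraries, and 202 to 238 with a library left out. The median place of Pvalb, 61 in TPM, became 28 on counts per kilobase. The log2 ratio of the PV list to the excitatory list was 3.76 on counts per kilobase and 4.15 to 4.32 with a library left out. The highest 100 genes held 71.8% of TPM on average, 53.6% on counts per kilobase, 59.5% over nuclear protein-coding genes and 12.7% over characterised genes, and 71.2 to 72.7% with a library left out. The median SD of 0.31 was 0.14 in low-background libraries and 0.29 to 0.33 with a library left out. Families with 1 leader in every library numbered 48 to 52, and called pairs 21 to 22, with a library left out. On counts per kilobase the called pairs numbered 23. Within a tier, 3 or 4 libraries are too few for this test. Of the named pairs, Vamp1 over Vamp2 (-0.42), Grin2a over Grin2b (-0.22) and Kcna1 over Kcna2 (0.0937) reversed on counts per kilobase. Each passed on that scale (exact permutation p adjusted = 0.00408), and the cause of the reversals was not tested. Within tiers Kcna1 over Kcna2 was 0.0237 (low) and 0.0324 (high), and Grin2a over Grin2b -0.0038 (low). Without replicate 8 Grin2a over Grin2b passed, at 0.20 (adjusted p = 0.0341, exact permutation test).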

Other observations

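The labels give no sex. Xist, which is transcribed from the inactive X chromosome, stood at 20.3 to 32.5 TPM in replicates 1, 6, 8 and 9 and at 0.0681 to 1.48 TPM in replicates 3, 4, 5 and 7. The Y-linked gene Eif2s3y stood at 19.1 to 34.1 TPM in the latter 4 libraries and at 0 to 0.166 TPM in the former. Replicate 2 held both, with 12.8 TPM of Xist, 2.50 TPM of Eif2s3y and 1.42 TPM of Ddx3y, a further Y-linked gene that had 9.73 to 15.1 TPM in replicates 3, 4, 5 and 7. The protocol describes cells sorted per mouse cortex, and whether replicate 2 comes from 1 mouse was not tested. These genes were named after their values were seen. The background tiers did not follow this split, since each of the low and high tiers held libraries of both kinds.

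Among long noncoding genes Bc1, a small cytoplasmic RNA of dendrites, which was also named after its values were seen, differed by tier. It had 5129 to 8691 TPM in the low and 1801 to 3990 TPM in the high-background libraries, beside 1242 to 2687 TPM over all libraries for Malat1. On counts per kilobase the order turned round, with a median of 13.8 for Bc1 (range 1.99 to 38.9) and 4825 for Malat1.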
